A study of Mus musculus with 5 samples.

Results

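The 37 genes described here encode proteins of glucose uptake, glycolysis, lactate production and export, the pyruvate dehydrogenase kinases, the pentose phosphate pathway and glycogen metabolism. They were chosen by name as a pathway and not by a measured threshold, but with earlier results of these data known. All 37 were found by gene ID among the 29267 genes of the deposited tables. RNA was sequenced from fibroblasts of ICR mouse embryos (MEF) during reprogramming, and the study's title concerns gene regulation by the mitoflash, a transient burst of superoxide signal in a mitochondrion. At day 4 there was a library of cells expressing CypD (cyclophilin D, the regulator of mitochondrial permeability encoded by Ppif) and a library of cells expressing Flag as its control. At day 8 there was a library of cells treated with mastoparan, a peptide of wasp venom, a library of cells treated with paraquat, a herbicide that passes electrons to oxygen, and a library of untreated control cells. The genotype label of all 3 day-8 libraries, control included, reads as CypD expression. Ppif, however, had 33.3, 34.2 and 29.2 CPM in the mastoparan, paraquat and control libraries of day 8, against 761 CPM in the CypD library and 44.2 CPM in the Flag library of day 4. The day-8 comparisons therefore rest on the treatment labels. The sources used here do not give doses, the reprogramming factors or the number of cultures or animals behind a library.

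Each of the 5 groups was 1 library, so no difference has a replicate check and none was tested. The libraries held between 2425983 and 3426683 counts. Values compared between libraries are CPM, counts scaled to a common library total by the trimmed mean of M-values (TMM). Values compared between genes are the deposited TPM, the transcript abundance unit that is per length. A fold is the ratio of scaled counts of 2 libraries, and the 95% range printed after it is an exact Clopper-Pearson interval that covers counting error only, since reads of an amplified library are not separate molecules. A log2 ratio is that of CPM + 0.5, and a gene entered a comparison if its mean CPM across both libraries was 1 or more, which 37 members did in 4 comparisons and 36 did for CypD against Flag, where Pdk4 had 5 and 1 counts. The 10 fibroblast markers were all detected and summed to between 6522 and 7066 CPM. The 5 epithelial markers (Cdh1, Epcam, Krt8, Krt18 and Cldn4) were also all detected and summed to 424, 484 and 436 CPM in the mastoparan, paraquat and control libraries of day 8, against 148 and 163 CPM in the CypD and Flag libraries of day 4. In bulk RNA, fewer cells of a type and less RNA per cell cannot be told apart. The 7 skeletal muscle markers summed to between 6.37 and 8.42 CPM, with Myod1, Myog and Ckm at 0 in every library, and the 4 erythroid markers to between 0.290 and 1.05 CPM. The 7 pluripotency markers summed to between 3.76 and 10.4 CPM with Lin28a at 0 throughout, the 5 haematopoietic markers to between 6.31 and 18.5 CPM with Adgre1 at 0 throughout, and the 4 endothelial markers to between 1.62 and 5.61 CPM with Cdh5 at 0 throughout.

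Glycolysis splits glucose into pyruvate in the cytosol, and lactate dehydrogenase turns pyruvate into lactate, which leaves the cell through monocarboxylate transporters. The pyruvate dehydrogenase kinases hold pyruvate back from mitochondrial oxidation, and the pentose phosphate pathway branches off at glucose-6-phosphate to make NADPH and ribose. A shift from oxidative metabolism toward glycolysis is known to accompany the reprogramming of mouse fibroblasts, and hypoxia-inducible factor, Myc and the carbohydrate-sensing Mlx proteins are known transcriptional regulators of these genes.

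The pathway was abundantly expressed in every library. Its RNA was spread unevenly over the steps, with far more TPM for aldolase, Gapdh and Pkm than for the hexokinases. The 37 members took 2.96%, 2.85% and 2.97% of the reads in the mastoparan, paraquat and control libraries of day 8, against 2.08% and 2.07% in the CypD and Flag libraries of day 4. The exact binomial intervals of the control share, 2.95% to 2.99%, and of the Flag share, 2.05% to 2.09%, do not meet. The 16 members of the 10 enzyme steps from hexokinase to pyruvate kinase took 2.37%, 2.31% and 2.37% at day 8, in the same order, against 1.66% and 1.65% at day 4. The 5 pentose phosphate members took between 0.123% and 0.130% in every library, so their share did not follow that of glycolysis.

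On the deposited TPM scale, Gapdh (ENSMUSG00000057666, chr6:125161715-125166467, minus strand; mm10 throughout, with positions from the GENCODE M21 annotation) had the highest level of the 37. Gapdh, glyceraldehyde-3-phosphate dehydrogenase, had 7465, 7499 and 7568 TPM in the mastoparan, paraquat and control libraries of day 8, against 6455 and 6560.0 TPM in the CypD and Flag libraries of day 4. Pkm, pyruvate kinase, had 2836, 2349 and 2918 TPM in the mastoparan, paraquat and control libraries of day 8, against 2305 and 2438 TPM in the CypD and Flag libraries of day 4. Aldoa, the main aldolase, had 2392, 2191 and 2547 TPM in the mastoparan, paraquat and control libraries of day 8, against 1297 and 1311 TPM in the CypD and Flag libraries of day 4. Ldha, the lactate-forming lactate dehydrogenase, stayed close to these, with 2411, 1911 and 2463 TPM at day 8 and 1992 and 2016 TPM at day 4. The entry steps were far lower: hexokinase 1 (Hk1) and hexokinase 2 (Hk2) together summed to 174, 165 and 218 TPM in the mastoparan, paraquat and control libraries and to 118 and 122 TPM in the CypD and Flag libraries. The regulators that set fructose-2,6-bisphosphate were lower still. The 3 member 6-phosphofructo-2-kinase/bisphosphatase genes (Pfkfb2, Pfkfb3 and Pfkfb4) summed to between 16.1 and 21.6 TPM, and Pdk4, a pyruvate dehydrogenase kinase, lay between 0.170 and 1.39 TPM.

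**Figure D1:**
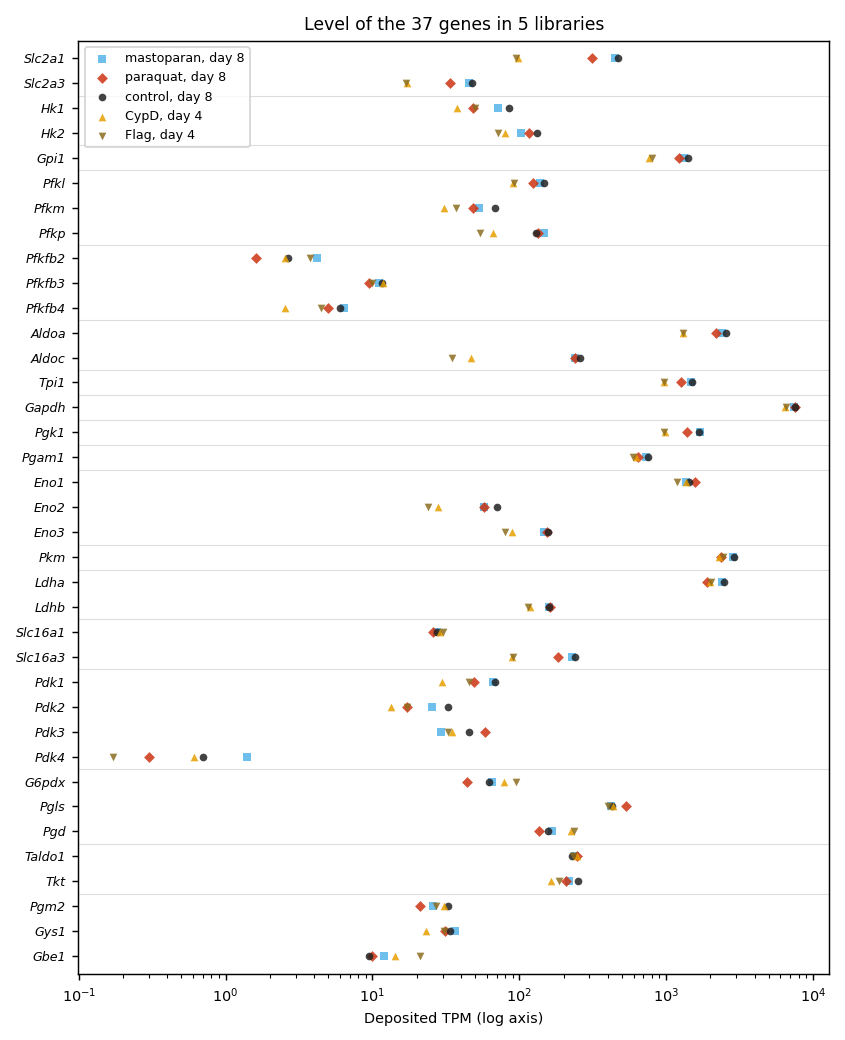
Deposited TPM of each of the 37 genes (log axis) in the 5 libraries, with 1 point per library and the genes ordered by step, grey lines separating the steps. The points of day 8 lie to the right of those of day 4 for Slc2a1, Slc2a3, Aldoc and Slc16a3 and to the left for G6pdx, Pgd and Gbe1.

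The control library of day 8 set beside the Flag library of day 4 shows how the pathway stood at the later day without an added treatment. Day, library and any difference in the introduced construct cannot be told apart here. Of 37 members, 32 had a log2 ratio above 0, where 50.0% of the 13541 genes compared did. The fold was at least 1.5 higher in 18 members (background 20.1%) and at least 1.5 lower in 1 member (background 13.8%). The median log2 ratio was 0.45 over the members and -6.88e-05 over all genes. The counting interval lay above 1 for 24 members (background 18.4%) and below 1 for 3 (background 18.9%). All 18 members from glucose uptake to pyruvate kinase lay above 0 with intervals above 1, 13 of them at least 1.5-fold, and their median was 0.87. After subtraction of the length trend described further on, 31 members were above 0, 18 at least 1.5-fold higher and 1 at least 1.5-fold lower. Of the 13541 genes compared, 6760, 2488 and 1683 were, in the same order. The median was then 0.56 over the members and 0 over all genes.

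Glucose uptake showed the widest gap together with aldolase C. Slc2a1 encodes GLUT1, the basal glucose transporter of most cells (ENSMUSG00000028645, chr4:119108711-119137983, plus strand). Slc2a1 had 831, 679.8 and 831 CPM in the mastoparan, paraquat and control libraries of day 8, against 174 and 162 CPM in the CypD and Flag libraries of day 4. All 3 day-8 libraries were far above both day-4 libraries, with paraquat the lowest of the 3. The control library was 5.13-fold (4.62 to 5.70) higher than the Flag library, from 2564 and 411 counts. Slc2a3 encodes GLUT3, a transporter of high affinity known best from neurons and early embryos (ENSMUSG00000003153, chr6:122727809-122801640, minus strand). It had 128, 111 and 131 CPM in the mastoparan, paraquat and control libraries of day 8, against 47.2 and 44.6 CPM in the CypD and Flag libraries of day 4, and again the days did not overlap. Its fold was 2.95 (2.39 to 3.66). On the TPM scale Slc2a1 made up 90.9%, 90.3% and 90.7% of the 2 transporters' sum in the mastoparan, paraquat and control libraries, against 85.1% and 84.7% in the CypD and Flag libraries.

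The hexokinases trap glucose in the cell as glucose-6-phosphate. Hk1, the constitutive form, had 199, 164 and 228 CPM in the mastoparan, paraquat and control libraries of day 8, against 101 and 131 CPM in the CypD and Flag libraries of day 4. The control library was 1.74-fold (1.53 to 1.99) higher than Flag. Hk2, the inducible form, had 104, 102 and 121 CPM in the mastoparan, paraquat and control libraries of day 8, against 90.3 and 95.1 CPM in the CypD and Flag libraries of day 4, and a smaller fold of 1.27 (1.08 to 1.5). Gpi1, which isomerizes glucose-6-phosphate, had 1928, 2089 and 1996 CPM in the mastoparan, paraquat and control libraries of day 8, against 1062 and 1074 CPM in the CypD and Flag libraries of day 4, a fold of 1.86 (1.78 to 1.95), with the 3 day-8 libraries close to each other.

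Phosphofructokinase 1 commits sugar to glycolysis, and its 3 genes were all higher. Pfkp, the platelet form, had 213, 208 and 211 CPM in the mastoparan, paraquat and control libraries of day 8, against 101 and 102 CPM in the CypD and Flag libraries of day 4. Pfkm, the muscle form, had 107, 114 and 133 CPM in the mastoparan, paraquat and control libraries of day 8, against 59.9 and 68.7 CPM in the CypD and Flag libraries of day 4. Pfkl, the liver form, had 367, 384 and 377 CPM in the mastoparan, paraquat and control libraries of day 8, against 226 and 225 CPM in the CypD and Flag libraries of day 4. The day-8 libraries stood above the day-4 libraries for each form, and the folds of control over Flag were 2.07 (1.79 to 2.40) for Pfkp, 1.94 (1.62 to 2.33) for Pfkm and 1.68 (1.51 to 1.85) for Pfkl. The genes of fructose-2,6-bisphosphate, the activator of that enzyme, had intervals that held 1, with folds of 0.783 (0.403 to 1.52) for Pfkfb2, 1.21 (0.905 to 1.63) for Pfkfb3 and 1.38 (0.822 to 2.36) for Pfkfb4.

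Aldolase splits fructose-1,6-bisphosphate. Aldoc, the form typical of brain (ENSMUSG00000017390, chr11:78322968-78327781, plus strand), had 233, 251 and 249 CPM in the mastoparan, paraquat and control libraries of day 8, against 41.7 and 39.5 CPM in the CypD and Flag libraries of day 4. No member had a higher fold of control over Flag, 6.30 (5.11 to 7.84), from 767 and 100 counts. Its share of aldolase TPM was 9.09%, 9.86% and 9.27% in the mastoparan, paraquat and control libraries, against 3.47% and 2.60% in the CypD and Flag libraries. Aldoa remained the main form and was also higher, with 2494, 2685 and 2538 CPM in the mastoparan, paraquat and control libraries of day 8, against 1288 and 1268 CPM in the CypD and Flag libraries of day 4 and a fold of 2.0 (1.92 to 2.09).

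From triose phosphate isomerase to pyruvate kinase, the main gene of each step was higher by a smaller fold than aldolase. Tpi1, triose phosphate isomerase, had 1617, 1672 and 1547 CPM in the mastoparan, paraquat and control libraries of day 8, against 1011 and 977 CPM in the CypD and Flag libraries of day 4, a fold of 1.58 (1.51 to 1.66). Gapdh, at the next step, was 1.21-fold (1.19 to 1.24) higher in control than in Flag. Pgk1, phosphoglycerate kinase, had 2182, 2081 and 2059.9 CPM in the mastoparan, paraquat and control libraries of day 8, against 1199 and 1143 CPM in the CypD and Flag libraries of day 4, a fold of 1.80 (1.72 to 1.88). Pgk1 shared 56% of its 49-base windows with the pseudogene Pgk1-rs7, which was listed with 0 counts in all 5 libraries. Gpi1 and Gapdh shared 20.1% and 19.2% of their windows with other genes. Pgam1, phosphoglycerate mutase, was 1.30-fold (1.23 to 1.38) higher and Pkm was 1.24-fold (1.21 to 1.28) higher.

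The enolase genes differed in how far apart the days stood. Eno2, the neuronal form, had 101, 116 and 113 CPM in the mastoparan, paraquat and control libraries of day 8, against 34.7 and 37.9 CPM in the CypD and Flag libraries of day 4, a fold of 2.99 (2.38 to 3.79). Eno3, the muscle form, had 136, 149 and 131 CPM in the mastoparan, paraquat and control libraries of day 8, against 70.4 and 66.7 CPM in the CypD and Flag libraries of day 4, a fold of 1.97 (1.64 to 2.37), while Eno1, the ubiquitous form, had a fold of 1.18 (1.13 to 1.23). Eno1 shared 23.9% of its 49-base windows with the near copy Eno1b, which had between 5165 and 7038 counts. Eno1b in turn shared 75.6% of its windows with Eno1, which had between 3621 and 5386 counts. Eno1b is not a member, so the enolase shares and the summed shares of the members leave it out. The sum of Eno1 and Eno1b was 1.08-fold (1.05 to 1.11) higher in control than in Flag. The summed CPM of the 6 neural markers did not separate the days. It was 681, 730.0 and 604 CPM in the mastoparan, paraquat and control libraries, against 681 and 605 CPM in the CypD and Flag libraries. Snap25 was at 0 in both day-4 libraries and Syp at 0 in Flag, while all 6 had counts in every day-8 library.

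At the lactate end, export rather than formation stood furthest apart. Slc16a3 encodes MCT4, a lactate exporter of glycolytic cells (ENSMUSG00000025161, chr11:120948480-120960868, plus strand). It had 371, 351 and 370.3 CPM in the mastoparan, paraquat and control libraries of day 8, against 137 and 137 CPM in the CypD and Flag libraries of day 4, a fold of 2.70 (2.40 to 3.06). Slc16a1, encoding MCT1, which carries lactate in either direction, had 86.7, 95.7 and 84.0 CPM in the mastoparan, paraquat and control libraries of day 8, against 87.7 and 88.4 CPM in the CypD and Flag libraries of day 4, and the days overlapped. The TPM of Slc16a3 was 8.38, 7.16 and 8.68 times that of Slc16a1 in the mastoparan, paraquat and control libraries, against 3.10 and 3.02 times in the CypD and Flag libraries. Ldha was 1.27-fold (1.22 to 1.31) higher in control than in Flag, and Ldhb, the form that favours pyruvate, was 1.59-fold (1.35 to 1.88) higher. Ldha remained between 92.2% and 94.6% of lactate dehydrogenase TPM in every library.

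Of the pyruvate dehydrogenase kinases, Pdk1 had 179, 152 and 179 CPM in the mastoparan, paraquat and control libraries of day 8, against 82.2 and 90.0 CPM in the CypD and Flag libraries of day 4, a fold of 1.99 (1.70 to 2.33). Pdk2 had 38.6, 32.1 and 42.8 CPM in the mastoparan, paraquat and control libraries of day 8, against 20.3 and 17.0 CPM in the CypD and Flag libraries of day 4, a fold of 2.52 (1.78 to 3.65) from 132 and 43 counts. Pdk3 had 40.4, 58.5 and 50.6 CPM in the mastoparan, paraquat and control libraries of day 8, against 41.1 and 45.0 CPM in the CypD and Flag libraries of day 4, with overlapping days and a fold of 1.12 (0.878 to 1.44). Pdk4 rested on 5 and 1 counts, and its interval held 1.

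The oxidative branch of the pentose phosphate pathway stood on the other side. G6pdx, glucose-6-phosphate dehydrogenase, its first and rate-limiting enzyme (ENSMUSG00000031400, chrX:74409483-74429194, minus strand), had 122, 96.6 and 111 CPM in the mastoparan, paraquat and control libraries of day 8, against 142 and 165 CPM in the CypD and Flag libraries of day 4. Pgd, 6-phosphogluconate dehydrogenase (ENSMUSG00000028961, chr4:149149991-149166771, minus strand), had 260.0, 251 and 236 CPM in the mastoparan, paraquat and control libraries of day 8, against 339 and 339 CPM in the CypD and Flag libraries of day 4. Both were lower in all 3 day-8 libraries than in either day-4 library. The folds of control over Flag were 0.669 (0.578 to 0.773) for G6pdx and 0.696 (0.630 to 0.770) for Pgd. Pgls, the lactonase between them, was near level at 1.10 (0.988 to 1.23). In the non-oxidative branch Tkt, transketolase, had a fold of 1.25 (1.14 to 1.36) and Taldo1, transaldolase, 1.02 (0.902 to 1.16). At the branch point the TPM of G6pdx was 0.0495, 0.0360 and 0.0443 of that of Gpi1 in the mastoparan, paraquat and control libraries, against 0.103 and 0.118 in the CypD and Flag libraries.

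Of the 3 glycogen members, Gbe1, the branching enzyme, had 12.3, 13.4 and 12.3 CPM in the mastoparan, paraquat and control libraries of day 8, against 18.5 and 23.3 CPM in the CypD and Flag libraries of day 4, and its fold was 0.529 (0.343 to 0.809) from 38 and 59 counts. Gys1, glycogen synthase, had a fold of 1.12 (0.920 to 1.36), and Pgm2, which in humans acts mainly on pentose phosphates, 1.24 (0.967 to 1.60). Both intervals held 1.

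**Figure D2:**
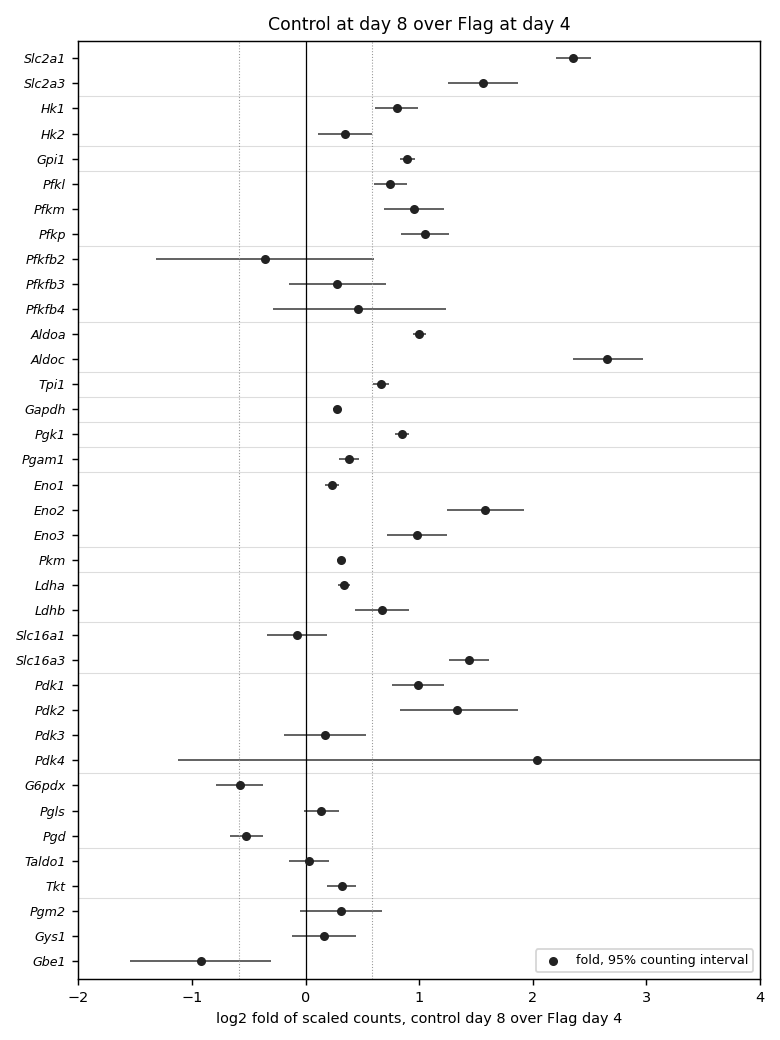
Fold of scaled counts of the control library of day 8 over the Flag library of day 4 for each member (points, log2 axis) with the 95% counting interval (bars) and dotted lines at 1.5-fold either way. Slc2a1 and Aldoc lie furthest to the right at 5.13-fold and 6.30-fold and Gbe1 furthest to the left at 0.529; the interval of Pdk4 runs past the right edge.

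The days were also compared across all 5 libraries. All 3 day-8 libraries were above both day-4 libraries for 27 of 37 members, where 28.5% of the 13585 genes compared were, and below both for 3 members, G6pdx, Pgd and Gbe1 (background 28.1%). In 15 members the lowest day-8 library was at least 1.5-fold above the highest day-4 library (background 9.45%), and in 0 members was the reverse true (background 3.97%). These 15 were Slc2a1, Slc2a3, Gpi1, Pfkl, Pfkm, Pfkp, Aldoa, Aldoc, Tpi1, Pgk1, Eno2, Eno3, Slc16a3, Pdk1 and Pdk2. On the deposited TPM scale 9 genes passed the same 1.5-fold limit, namely Slc2a1, Slc2a3, Gpi1, Pfkp, Aldoa, Aldoc, Eno2, Eno3 and Slc16a3, where 7.17% of all genes did. On that scale 23 members had all day-8 libraries above (background 20.3%) and 4 had all below, with Slc16a1 added (background 32.6%). Hk1, Pfkfb3, Pkm and Ldha were among the 27 on scaled counts but overlapped between the days on TPM. The epithelial markers moved with day as given above. The haematopoietic sum did too: 15.4, 17.8 and 18.5 CPM with mastoparan, paraquat and control, against 8.69 and 6.31 CPM with CypD and Flag. The pluripotency, skeletal muscle and erythroid sums were also higher in all 3 day-8 libraries, at low levels, and the fibroblast sum was lower. The neural and endothelial sums overlapped between the days. The part of these markers in the differences was not tested.

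The promoters of these genes were searched for ACGTG, the core of the element bound by hypoxia-inducible factor, and for the E-box CACGTG, bound by Myc and its relatives. RefSeq windows of 250 bases before each annotated start (GRCm38.p6, the assembly of mm10) were matched by symbol for 36 members with 53 windows; Slc2a3 had no entry. ACGTG, on either strand, was present in 15 of 36 members (41.7%), against 24.9% of the 10321 genes whose mean over all libraries reached 1 CPM and 18.5% of all 27025 genes with a window. The E-box CACGTG, which contains ACGTG on both strands, was present in 6 members (16.7%), against 9.85% and 6.86%. A gene with several windows has more room for a match. By window, ACGTG was in 35.8% of the members' windows and 21.2% of those of genes that reached 1 CPM. By the same reading CACGTG was in 11.3% and 8.16%. Of the 14 members with a window that were at least 1.5-fold above in all day-8 libraries, 6 (42.9%) held ACGTG, and of the 22 other members 9 (40.9%) did. A match is a description of letters, not of a bound site. The 5 windows below are shown for the transporters at both ends of the pathway (Slc2a1, chr4:119108495-119108744, plus strand; Slc16a3, chr11:120948817-120949066, plus strand), for Pgk1 (chrX:106186850-106187099, plus strand), a textbook hypoxia-inducible gene, for Ldha (chr7:46845554-46845803, plus strand), which held 5 matches in the window shown, 0 in its other window, and a fold of 1.27, and for Aldoc (chr11:78322823-78323072, plus strand), which held 0 in either of its windows and a fold of 6.30. All are written 5′ to 3′ with ACGTG and its reverse complement CACGT in capitals.
Slc2a1: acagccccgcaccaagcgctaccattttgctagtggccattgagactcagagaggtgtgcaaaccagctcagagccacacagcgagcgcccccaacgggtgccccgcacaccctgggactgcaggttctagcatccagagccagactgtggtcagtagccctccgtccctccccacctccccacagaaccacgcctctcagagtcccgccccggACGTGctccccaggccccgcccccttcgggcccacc
Slc16a3: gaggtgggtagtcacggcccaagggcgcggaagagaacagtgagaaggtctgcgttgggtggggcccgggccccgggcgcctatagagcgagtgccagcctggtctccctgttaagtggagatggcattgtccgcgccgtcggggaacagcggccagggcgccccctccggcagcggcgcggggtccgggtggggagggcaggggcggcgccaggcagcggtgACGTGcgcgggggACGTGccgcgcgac
Pgk1: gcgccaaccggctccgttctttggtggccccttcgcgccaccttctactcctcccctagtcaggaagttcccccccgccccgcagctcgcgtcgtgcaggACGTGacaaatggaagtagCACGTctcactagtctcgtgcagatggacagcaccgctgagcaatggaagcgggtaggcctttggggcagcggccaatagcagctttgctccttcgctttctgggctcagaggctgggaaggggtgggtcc
Ldha: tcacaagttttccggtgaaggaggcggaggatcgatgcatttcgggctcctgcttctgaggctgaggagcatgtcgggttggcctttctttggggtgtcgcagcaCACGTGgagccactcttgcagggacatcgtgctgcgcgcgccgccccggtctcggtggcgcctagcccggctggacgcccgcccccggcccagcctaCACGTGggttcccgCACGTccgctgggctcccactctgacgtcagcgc
Aldoc: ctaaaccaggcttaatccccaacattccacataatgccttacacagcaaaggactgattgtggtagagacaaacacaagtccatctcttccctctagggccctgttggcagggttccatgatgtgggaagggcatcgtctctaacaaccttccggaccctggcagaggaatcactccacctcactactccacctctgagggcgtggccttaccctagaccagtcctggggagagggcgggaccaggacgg

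Genes of the same pathways outside the 37 were read from a list of 80, of which 58 could be compared between control at day 8 and Flag at day 4. Of these, 18 were at least 1.5-fold higher (background 20.1%) and 6 at least 1.5-fold lower (background 13.8%), with a median log2 ratio of 0.08. The highest log2 ratio among them was that of a glycogen-degrading enzyme. Pygl, liver glycogen phosphorylase, had 61.8, 63.7 and 61.3 CPM in the mastoparan, paraquat and control libraries of day 8, against 9.27 and 9.08 CPM in the CypD and Flag libraries of day 4, a fold of 6.75 (4.37 to 10.9). Pgm1, the phosphoglucomutase that links glycogen to glycolysis, had a fold of 2.17 (1.78 to 2.66), Stbd1, a glycogen-binding protein, 3.12 (1.53 to 7.03), and Pygb, brain glycogen phosphorylase, 1.5 (1.24 to 1.84). Phka2, a subunit of phosphorylase kinase, was 1.81-fold (1.32 to 2.51) higher.

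Among regulators, Txnip, an arrestin-like inhibitor of glucose uptake that is induced by glucose, had 594, 539 and 651 CPM in the mastoparan, paraquat and control libraries of day 8, against 143 and 159 CPM in the CypD and Flag libraries of day 4. Its paralog Arrdc4 had 34.7, 43.3 and 37 CPM in the mastoparan, paraquat and control libraries of day 8, against 18 and 12.2 CPM in the CypD and Flag libraries of day 4. Both were higher in every day-8 library, with folds of 4.08 (3.67 to 4.55) for Txnip and 3.02 (2.02 to 4.65) for Arrdc4. Hif1a, the oxygen-regulated subunit of hypoxia-inducible factor, had 38.9, 35.1 and 38.6 CPM in the mastoparan, paraquat and control libraries of day 8, against 54.4 and 62.7 CPM in the CypD and Flag libraries of day 4, a fold of 0.615 (0.481 to 0.785). Of gluconeogenesis genes, Pck2, mitochondrial phosphoenolpyruvate carboxykinase, had a fold of 2.41 (1.99 to 2.93) and Fbp2, a fructose-1,6-bisphosphatase, 2.88 (1.28 to 7.30) from 28 and 8 counts. The transporter genes Slc2a6 and Slc2a12 had folds of 1.96 (1.51 to 2.56) and 2.21 (1.14 to 4.56), and Shpk, sedoheptulokinase, 2.21 (1.14 to 4.56). Ldhd, D-lactate dehydrogenase, had 30 and 4 counts, but it shared 40.2% of its windows with its neighbour Znrf1.

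**Figure D3:**
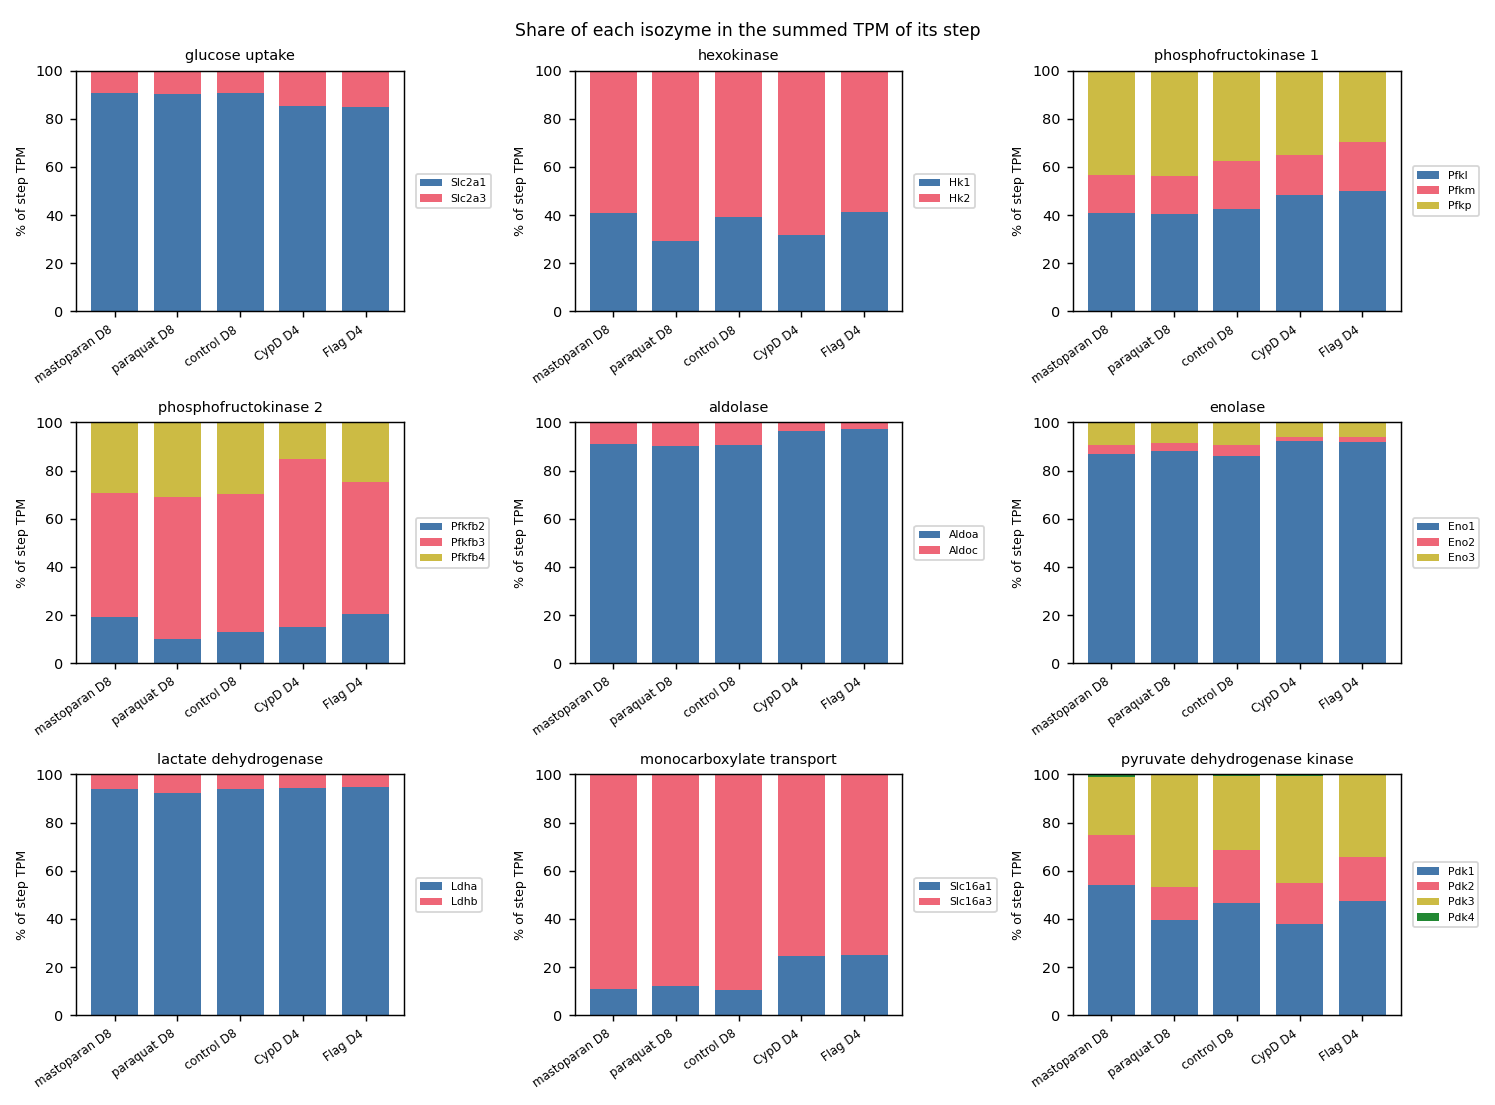
Share of each isozyme in the summed deposited TPM of its step (percent, stacked bars) in the 5 libraries, for the 9 steps with several members. The Aldoc, Eno2, Eno3, Slc2a1 and Slc16a3 shares were larger in the 3 day-8 libraries than in the 2 day-4 libraries, and the Ldha share lay at 92.2% or above throughout.

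The isozyme that led a step by TPM was the same in all 5 libraries for 7 of 9 steps, and by counts for 9 of 9. The leaders by TPM were Slc2a1, Hk2, Pfkfb3, Aldoa, Eno1, Ldha and Slc16a3. The hexokinase leader depended on the unit, since by counts, which are not per length, Hk1 led with 65.7%, 61.7% and 65.4% of the step in the mastoparan, paraquat and control libraries of day 8, and with 52.8% and 57.9% in the CypD and Flag libraries of day 4. For phosphofructokinase 1 by TPM, Pfkp led in the mastoparan and paraquat libraries with 43.4% and 43.7% of the step. Pfkl led in the control library of day 8 with 42.6% and in the CypD and Flag libraries of day 4 with 48.3% and 50.1%. By counts Pfkl led in every library. Its count share was 53.4%, 54.4% and 52.3% in the mastoparan, paraquat and control libraries, and 58.4% and 56.9% in the CypD and Flag libraries. For the pyruvate dehydrogenase kinases by TPM, Pdk1 led in the mastoparan, control and Flag libraries and Pdk3 in the paraquat and CypD libraries. By counts Pdk1 led this step in every library. It held 68.5%, 62.5% and 65.3% in the mastoparan, paraquat and control libraries, and 56.7% and 59.1% in the CypD and Flag libraries.

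CypD against Flag at day 4 asks what CypD expression does, and the pathway was nearly level. Of 36 members compared, 20 had a log2 ratio above 0 (background 47.0%), or 16 on deposited TPM, with a median of 0.0028 over the members and -0.02 over all genes. At least 1.5-fold higher were 0 members (background 6.01%), and 2 were at least 1.5-fold lower (background 6.83%). Those 2 were Pfkfb2, with 18 counts with CypD and 21 with Flag, and Pfkfb4, with 20 and 25. Both counting intervals held 1, at 0.629 (0.316 to 1.24) and 0.587 (0.309 to 1.10).

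Intervals that left out 1 belonged to small differences. They lay above 1 for 4 members (background 4.13%) and below 1 for 3 (background 4.19%). Hk1 was lower, with 101 CPM with CypD and 131 CPM with Flag, a fold of 0.771 (0.662 to 0.899). Gys1 was lower by a like amount, with 55.6 CPM with CypD and 72.2 CPM with Flag, a fold of 0.770 (0.625 to 0.948). G6pdx had 142 CPM with CypD and 165 CPM with Flag, a fold of 0.858 (0.752 to 0.980). The 4 on the other side were Pgk1, Pgam1, Eno1 and Pgls, with folds of 1.05 (1.00 to 1.10), 1.09 (1.02 to 1.15), 1.09 (1.05 to 1.14) and 1.12 (1.01 to 1.25). Read together with its near copy Eno1b, Eno1 had a fold of 1.02 (0.988 to 1.04), and the interval then held 1.

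Among the other 80 genes, 57 could be compared, with a median of -0.07. Of these 57 genes, 1 was at least 1.5-fold higher (background 6.01%) and 7 were at least 1.5-fold lower (background 6.83%). Among the genes of the 57 that averaged 5 CPM or more, 0 passed 1.5-fold with an interval that left out 1.

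Mastoparan against control at day 8 also left the pathway close to level. Of 37 members, 19 were above 0 (background 51.3%), 2 were at least 1.5-fold higher (background 6.22%) and 0 at least 1.5-fold lower (background 6.66%). The median was 0.00076 over the members and 0.0074 over all genes. The 2 were Pfkfb2, with 29 counts with mastoparan and 20 in control, and Pdk4, with 10 and 5. Their intervals, 1.57 (0.858 to 2.93) and 2.16 (0.674 to 8.07), held 1. On the deposited TPM scale, where the median of all genes was -0.04, 10 of 37 members were above 0 and 1 was at least 1.5-fold lower. On TPM centred on that of the scaled counts 18 were above 0. On library totals alone 13 were above 0.

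Counting intervals lay above 1 for 4 members (background 4.08%) and below 1 for 3 (background 3.28%). Pfkm had 107 CPM with mastoparan and 133 CPM in control, a fold of 0.805 (0.692 to 0.936). Hk1 had 199 CPM with mastoparan and 228 CPM in control, a fold of 0.873 (0.780 to 0.976). Tkt had 379 CPM with mastoparan and 413 CPM in control, a fold of 0.918 (0.846 to 0.996). The 4 that were higher were Tpi1, Gapdh, Pgk1 and Eno1, with folds between 1.03 and 1.07. Of these, Tpi1, Gapdh and Eno1 changed sign on the deposited TPM scale. The transporters were level, with folds of 0.999 (0.945 to 1.06) for Slc2a1, 0.978 (0.847 to 1.13) for Slc2a3 and 1.00 (0.919 to 1.09) for Slc16a3.

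In the list of 80 other genes 58 were compared, with a median of -0.0091. Of these 58 genes, 5 were at least 1.5-fold higher (background 6.22%) and 2 at least 1.5-fold lower (background 6.66%). Ldhd, with 10 counts with mastoparan and 30 in control, was the single gene of at least 5 CPM past 1.5-fold with an interval that left out 1, at 0.361 (0.157 to 0.758).

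Paraquat against control at day 8 uses the same control library as the mastoparan comparison. In it the glucose transporters and hexokinases were lower and Gpi1 and several abundant lower steps slightly higher, and both directions depended in part on the scale, as given below. Of 37 members, 20 were above 0 (background 47.5%), 0 were at least 1.5-fold higher (background 9.32%) and 2 at least 1.5-fold lower (background 10.5%), with a median of 0.015 over the members and -0.03 over all genes. The 2 were Pfkfb2, with 9 and 20 counts in the paraquat and control libraries, and Pdk4, with 2 and 5; both intervals held 1. The number above 0 depended on the scale, with 11 on library totals alone, 7 on deposited TPM and 19 on centred TPM. The median log2 ratio of all genes shifted to -0.13 on library totals and to -0.28 on deposited TPM.

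Counting intervals lay below 1 for 6 members (background 9.82%). Slc2a1 had 679.8 CPM with paraquat and 831 CPM in control, a fold of 0.818 (0.767 to 0.871). Slc2a3 had 111 CPM with paraquat and 131 CPM in control, a fold of 0.848 (0.722 to 0.994). Hk1 had 164 CPM with paraquat and 228 CPM in control, a fold of 0.719 (0.633 to 0.816). Both glucose transporters and both hexokinases were thus lower in paraquat, with Hk2 at 0.844 (0.714 to 0.996), and the other 2 were Pdk1 at 0.851 (0.742 to 0.975) and Ldha at 0.950 (0.918 to 0.983). On TPM centred on the median of all genes the log2 ratio of Hk2 was 0.074, above 0.

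Intervals lay above 1 for 7 members (background 11.3%). Pgls, 6-phosphogluconolactonase, had 379 CPM with paraquat and 256 CPM in control, a fold of 1.48 (1.34 to 1.63). Taldo1 had 247 CPM with paraquat and 186 CPM in control, a fold of 1.33 (1.18 to 1.49). The other 5 were Eno1 at 1.12 (1.08 to 1.17), Gapdh at 1.10 (1.08 to 1.12), Tpi1 at 1.08 (1.04 to 1.13), Aldoa at 1.06 (1.02 to 1.09) and Gpi1 at 1.05 (1.01 to 1.09). Of these 5, Gapdh, Tpi1, Aldoa and Gpi1 were below 0 on deposited TPM, and Aldoa and Gpi1 also on library totals. The remaining pentose phosphate members had intervals that held 1, with G6pdx at 0.874 (0.735 to 1.04), Pgd at 1.06 (0.952 to 1.19) and Tkt at 0.951 (0.872 to 1.04).

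Transcript length moved with these values. Over 40 bins of all genes by average transcript length, the median log2 ratio of paraquat over control ran between 0.53 in the shortest bin (median 490 bases) and -0.24 in the longest (median 9357 bases), and for control at day 8 over Flag the bins ran between 0.19 (median 940.1 bases) and -0.17 (median 3483 bases). Pgls averaged 906 bases and Taldo1 1224 bases, while Hk1 and Slc2a3 averaged 3947 and 3988 bases. With the bin medians subtracted, the log2 ratio of Pgls was 0.25 in place of 0.57, that of Taldo1 0.20 in place of 0.41, and that of Gapdh -0.10 in place of 0.14. Slc2a1 stood at -0.22 in place of -0.29, Hk1 at -0.28 in place of -0.47, Hk2 at -0.31 in place of -0.24 and Slc2a3 at -0.04 in place of -0.24. Length was not tested further as a part of these differences.

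**Figure D4:**
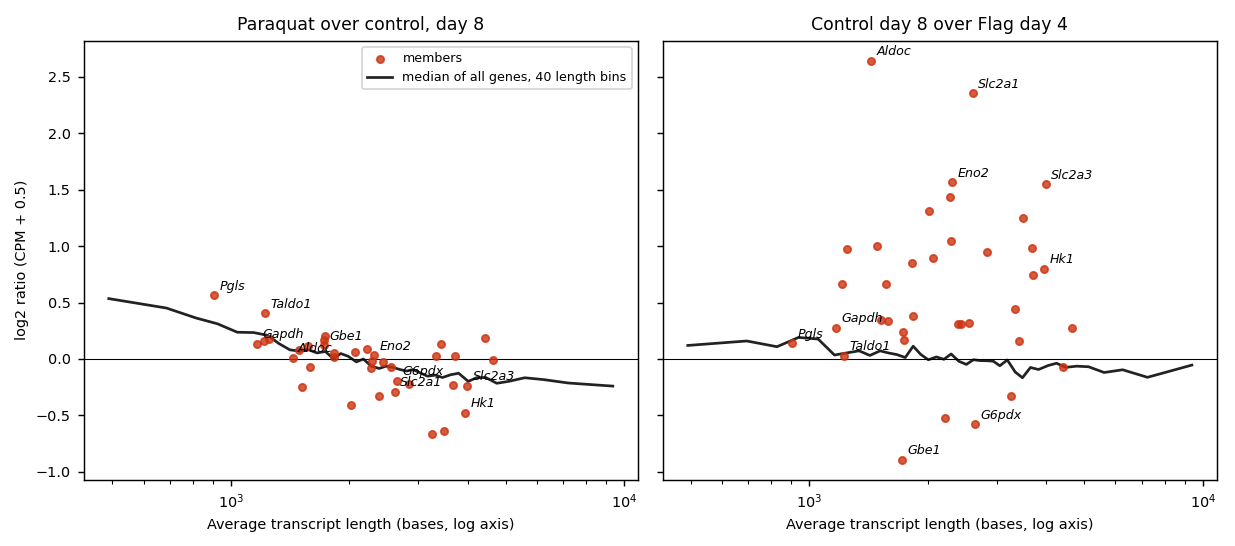
Log2 ratio (CPM + 0.5) of each member (red points) against its average transcript length in bases (log axis), with the median of all genes in 40 length bins (black line), for paraquat over control at day 8 (left) and control at day 8 over Flag at day 4 (right). In the left panel most members lie near the falling line, with Pgls at 0.57 and Hk1 at -0.47; in the right panel the line falls over a smaller range and most members lie above it.

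Of 57 other pathway genes compared for paraquat, 2 were at least 1.5-fold higher (background 9.32%) and 4 at least 1.5-fold lower (background 10.5%). Their median was -0.14. Myc had 827 CPM with paraquat and 1442 CPM in control, a fold of 0.573 (0.543 to 0.605), and was the single gene of at least 5 CPM past 1.5-fold with an interval that left out 1. Myc regulates glycolytic genes and is in many protocols a reprogramming factor, and reads of an introduced Myc and of the endogenous gene cannot be told apart in these tables. Its log2 ratio was -0.80, and -0.88 with the length trend removed.

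**Figure D5:**
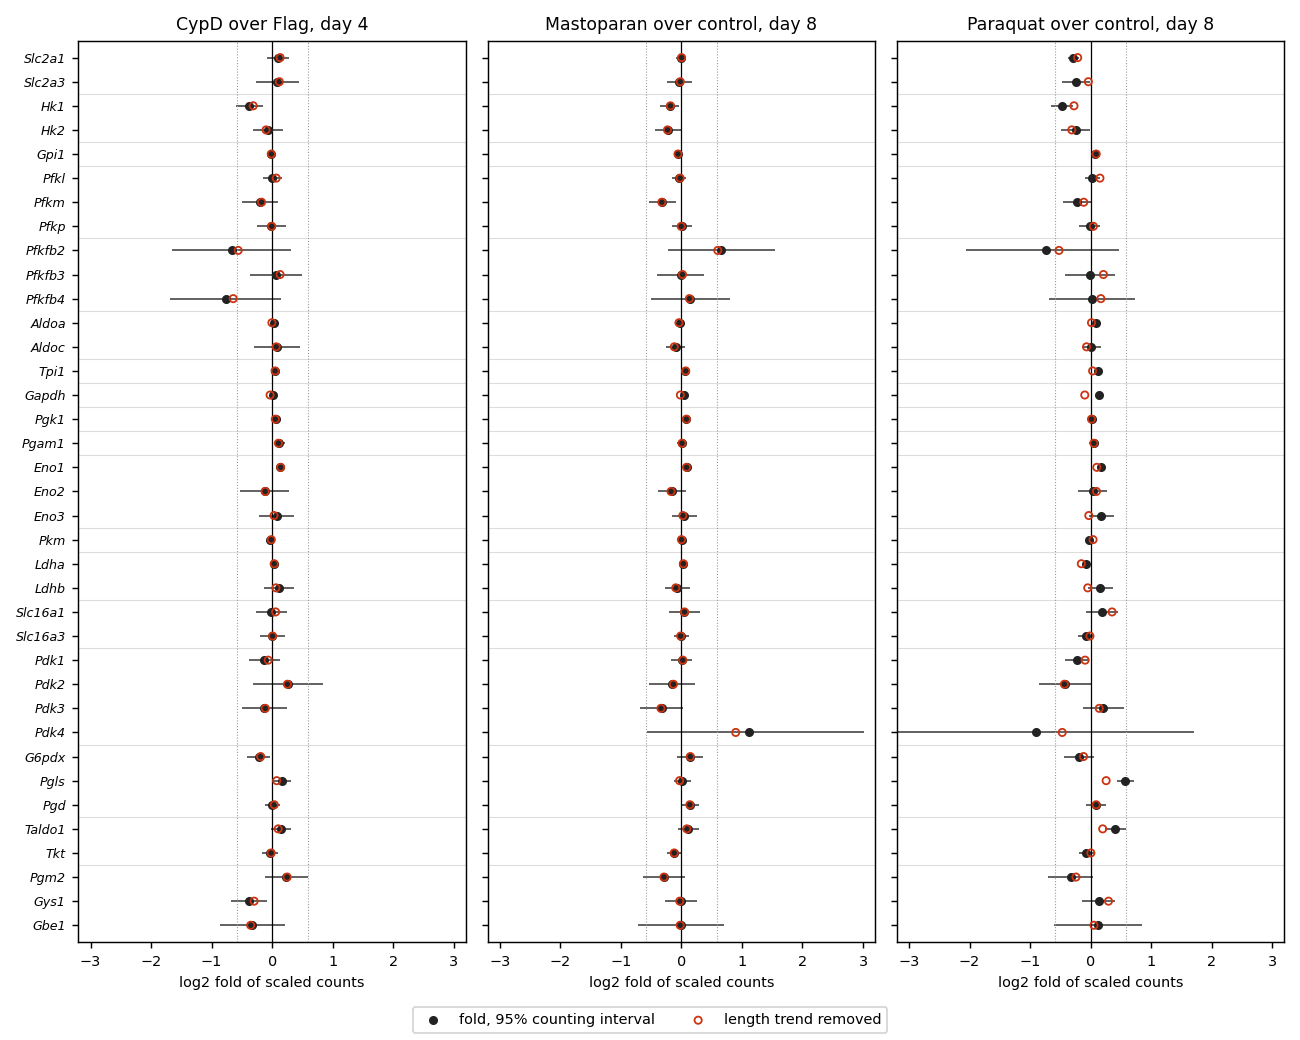
Fold of scaled counts for each member (black points, log2 axis) with the 95% counting interval (bars), and log2 ratio with the length trend removed (open red circles), for CypD over Flag, mastoparan over control and paraquat over control. Dotted lines mark 1.5-fold either way; most members lie between them in all 3 panels. Pdk4 is not drawn for CypD over Flag, and its interval runs past the left edge in the paraquat panel.

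Mastoparan and paraquat were last set against each other at day 8; these libraries also enter the 2 comparisons with control. Of 37 members, 17 were above 0 (background 51.8%), 2 at least 1.5-fold higher in mastoparan (background 10.6%) and 0 at least 1.5-fold lower (background 9.33%), with a median of -0.04 over the members and 0.02 over all genes. On deposited TPM 27 were above 0, on library totals 23 and on centred TPM 19, and the median of all genes shifted to 0.22 on TPM. Pfkfb2, a heart-type 6-phosphofructo-2-kinase, had 29 counts with mastoparan and 9 with paraquat, a fold of 2.61 (1.20 to 6.27). It was the single member past 1.5-fold with an interval that left out 1 in a comparison of treatments, and it rests on few counts. The other was Pdk4, with 10 and 2 counts and an interval that held 1.

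Intervals lay above 1 for 8 members (background 8.89%) and below 1 for 8 (background 10.4%). G6pdx had 122 CPM with mastoparan and 96.6 CPM with paraquat, a fold of 1.26 (1.07 to 1.5). Slc2a1 was 1.22-fold (1.15 to 1.30) higher in mastoparan, Hk1 1.21-fold (1.06 to 1.39) and Pdk1 1.18-fold (1.03 to 1.35) higher. On the lower side, Pgls had a fold of 0.683 (0.618 to 0.754), Pdk3 0.690 (0.533 to 0.891), Taldo1 0.816 (0.725 to 0.918) and Ldhb 0.853 (0.736 to 0.988). The rest of the 16 were Pgk1, Pkm and Ldha on the higher side and Gpi1, Aldoa, Gapdh and Eno1 on the lower side, with folds between 0.923 and 1.07. Of these 7, Gpi1, Aldoa, Gapdh, Eno1 and Pkm changed sign under at least 1 other scaling or length correction. With the length trend removed, the log2 ratio of Pgls was -0.30 in place of -0.55, and that of Pdk3 -0.51 in place of -0.53. Of 58 other pathway genes, 7 were at least 1.5-fold higher in mastoparan (background 10.6%) and 2 at least 1.5-fold lower (background 9.33%). Their median was 0.12. Myc had a fold of 1.66 (1.57 to 1.75) and Ldhd 0.405 (0.169 to 0.906).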

How the data were processed

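RNA-seq of 5 libraries was read, 1 per group. Per the file headers, the authors deposited for each of 29267 gene IDs an expected count, which is an estimated count that need not be whole, together with TPM (per transcript length) and FPKM, which is a fixed multiple of TPM within a library and was not analysed further. Per the submitters' processing notes, Bowtie2 2.2.5 and mm10 were used; the counting program, its annotation and its handling of strand are not given there or in the labels, so an overlapping or antisense gene may share reads. Symbols were found for 28756 IDs (98.3%) in GENCODE M21. No per-sample column was left unmapped.

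Expected counts were rounded to whole numbers and scaled by TMM (edgeR 4.0.16, R 4.3.3), with factors of 1.01 for CypD, 1.01 for Flag, 1.01 for mastoparan, 0.951 for paraquat and 1.02 for control. A count of 3, the limit that a count of 0 allows, stood for between 0.869 and 1.30 CPM. Log2 ratios used CPM + 0.5 and genes whose mean CPM across both libraries was 1 or more, and folds used counts with Clopper-Pearson intervals (scipy 1.17.1). With 1 library a group no p-value was computed, and nothing says whether libraries were pooled from several cultures. The computation was tested on simulated data. All 37 members are reported; of the other pathway genes, those with a mean of at least 5 CPM, a fold of at least 1.5 and an interval that leaves out 1 are named, except 1 that is not reported here. Members, lists and comparisons were chosen with earlier results of these data known. The reading of all day-8 against all day-4 libraries, the TPM centred on the median of all genes, and the length-corrected values set beside each member were added after the data were seen. Alternatives covered scaling (DESeq2 1.42.0 size factors among them), filters, pseudocounts, length and GC trends, and genes that share 49-base windows. Protein sequences of the isozymes were not analysed here.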

Additional observations from a re-analysis of the deposited data

How the results depend on the processing

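No paired analysis was possible because each group is 1 library. Without replicates, intervals cover counting error only, and members with few counts (Pdk4, Pfkfb2, Pfkfb4, Gbe1 and Pdk2) carry wide ones. Over all alternatives run, 2403 values of single members stayed within their counting interval, 129 moved outside it, and 24 whose interval left out 1 changed sign. Changed filters and the leaving out of members that share windows cannot alter a single member's ratio. Such settings add to the 2403 without testing it. Of counts and medians over the members, 272 stayed close and 25 moved. The cause of each move was not tested.

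For the control library of day 8 over the Flag library of day 4, the median over the members lay between 0.40 and 0.56 and 29 to 32 members lay above 0, and the number at least 1.5-fold lower was 3 on deposited TPM. Members at least 1.5-fold above in all day-8 libraries numbered 9 on TPM. For CypD over Flag, the number lower was 1 on centred TPM and with length, or length and GC, trends removed, and the number higher was 1 with no filter and with the 20 most abundant genes out of the totals. For mastoparan over control on TPM, 10 members were above 0 and 1 was lower; the number higher was 1 at a minimum of 5 CPM. For paraquat over control, 11 members were above 0 on library totals and 7 on TPM, where the median was -0.24 and 5 were lower. The number lower was 1 at a minimum of 5 CPM and 0 with length, or length and GC, trends removed. The number higher was 1 with upper-quartile factors, on centred TPM and with the 20 most abundant genes out. For mastoparan over paraquat on TPM, the median was 0.21, 27 were above 0 and 1 was lower; on centred TPM 1 was lower, and at a minimum of 5 CPM 1 was higher.

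These log2 ratios of single members changed sign. For mastoparan over control, TPM gave -0.022 for Tpi1, -0.020 for Gapdh and -0.064 for Eno1. Centred TPM gave -0.015 for Eno1, and Gapdh was -0.017 with length and -0.0050 with length and GC trends removed. For paraquat over control, totals gave -0.038 for Gpi1 and -0.022 for Aldoa. TPM gave -0.21 for Gpi1, -0.22 for Aldoa, -0.23 for Tpi1 and -0.013 for Gapdh, and centred TPM gave 0.074 for Hk2. Gapdh was -0.10 with length and -0.10 with length and GC trends removed, where Aldoa was -0.023. For mastoparan over paraquat, totals gave 0.013 for Eno1, and TPM gave 0.11 for Gpi1 and 0.13 for Aldoa. With length removed Gapdh was 0.077 and Pkm -0.031, and with length and GC removed Aldoa was 0.014, Gapdh 0.12 and Eno1 0.0084.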
